A study of Saccharomyces cerevisiae with 8 samples.

Results

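XUTs (Xrn1-sensitive unstable transcripts) are long noncoding RNAs of budding yeast, and the 852 described here are the low-abundance ones. They were chosen by their measured density: XUT rows of the deposited table whose mean over all 8 libraries was at least 0.01 and under 0.05. The table holds 1664 XUT rows among 10891 features, and of the other XUTs 669 averaged 0.05 or more and 143 less than 0.01. Their low level is thus a description and not a finding.

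XUTs are made by RNA polymerase II, capped and polyadenylated like messenger RNAs, and many run antisense to a protein-coding gene. After export they are degraded from the 5′ end in the cytoplasm by the exonuclease Xrn1, which acts after the cap has been removed, and for many of them this depends on the nonsense-mediated decay factors. Dbp2 is a DEAD-box RNA helicase that binds nascent RNA in the nucleus and takes part in the assembly of RNA with its proteins. The series title concerns Xrn1-sensitive noncoding RNAs and the nuclear depletion of Dbp2. No group lacks XRN1 according to the labels, so these RNAs were measured in cells that can degrade them.

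By the labels, all 4 groups were W303 cells of the α mating type with the rapamycin-resistant tor1-1 allele. They had the FPR1 gene replaced by NAT and RPL13A fused to 2 copies of FKBP12 with the TRP1 marker. They also share mutant leu2 and ura3 marker alleles, his3-11,15 and trp1-1, the alleles can1-100 and ade 2-1, and are labelled GAL and psi+. The tagged strain adds DBP2-FRB-GFP-KanMX6. Parental and tagged cells were each grown untreated or with rapamycin at 1 µg/mL for 1 h, with 2 biological replicates a group. In such anchor-away cells rapamycin bridges the FRB tag to the FKBP12-fused ribosomal protein, which carries the tagged protein out of the nucleus; the labels do not say whether each strain is 1 clone, and the RNA data do not show where Dbp2 was. A difference between the strains holds the tag and anything else that separates these 2 strains, and these cannot be told apart.

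The libraries held 22523078 to 27500113 yeast reads, of which members took 17394 to 27621, or 0.0731 to 0.103%. Reads were recovered from the densities, and a member had a median of 16.8 reads a library (range 2 to 195). In all, 249 members averaged under 10 reads, 88 averaged 50 or more, and 13 were at 0 reads in at least 1 library. Their recovered lengths had a median of 636 nt, from 136 nt in XUT0067 to 4560 nt in XUT1036; a length is the shortest that makes the reads whole, so some lengths and reads may be too low by a common factor.

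Densities are in the authors' unit, reads per nucleotide scaled to the ERCC spike-in RNAs. Fold changes are limma estimates on log2(density + 0.00721) with their standard error, and a call is a Benjamini-Hochberg adjusted p under 0.05 over the 9948 yeast features tested. Adding 0.00721 understates the change of members this low. The libraries are total RNA from cultures, so a difference in density can be a difference in the RNA of a cell or in the number of cells or amount of RNA per spike-in, and these cannot be told apart.

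The bounds cut through a continuum of XUTs. Just inside the lower bound were XUT0340, XUT1295 and XUT1404, with mean densities of 0.01001, 0.01002 and 0.01023, and just outside it were XUT1323 (0.00999), XUT0246 (0.00994) and XUT0190 (0.00988). Just inside the upper bound were XUT1348 (0.04999), XUT0770 (0.04996) and XUT1570 (0.04995), and just outside it were XUT1193 (0.05 after rounding), XUT0566 (0.05004) and XUT1449 (0.05006). The shallowest of these was XUT0190, with a mean of 1 read a library.

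Members were more abundant per spike-in in tagged than in parental cells, with and without rapamycin. Their summed density was 16.6 and 18.8 in the untreated parental libraries and 27.5 and 26.3 in the untreated tagged ones. With rapamycin it was 19.3 and 19.2 in parental and 36.6 and 32.7 in tagged libraries. Tagged libraries were thus above parental ones in both pairs of groups, with no overlap. The ratio of the group means was 1.52 without and 1.80 with rapamycin, against 1.35 and 1.43 for the summed density of all features tested. The sum over all features rests on the most abundant genes; the median density gave ratios of 1.55 and 1.82 for members and 1.30 and 1.56 for all features. Rapamycin itself went with ratios of the members' summed density of 1.09 in parental and 1.29 in tagged cells, beside 1.04 and 1.1 for all features tested. By median density these ratios were 1.09 and 1.27 for members and 1.08 and 1.3 for all features.

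**Figure D1:**
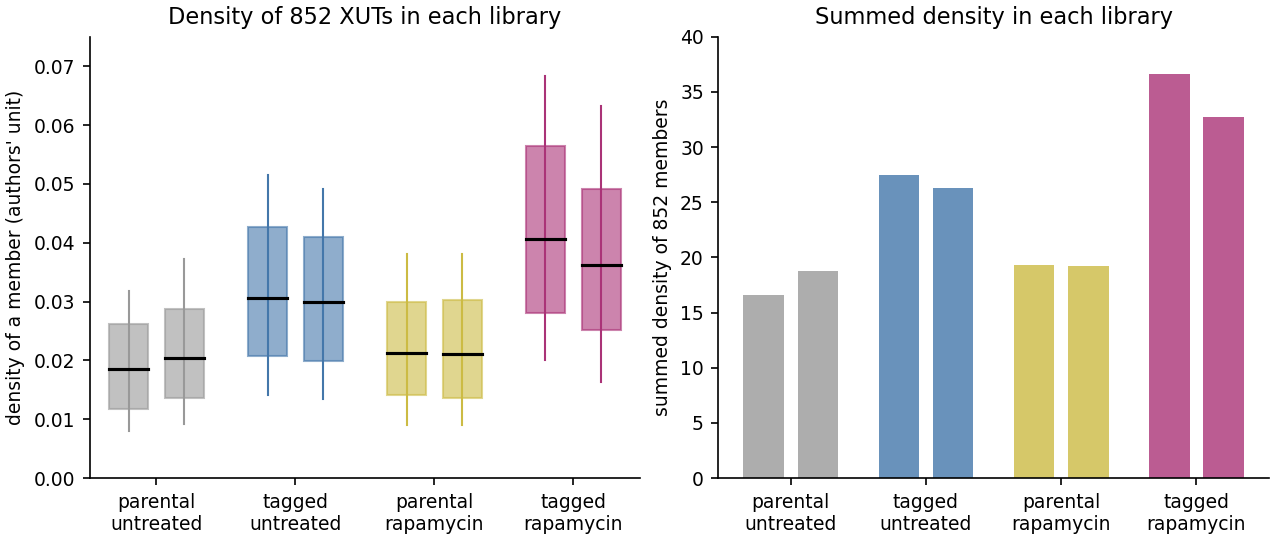
Left, the density of the 852 members in each library (line, median; box, quartiles; whiskers, 10th to 90th percentile). Right, their summed density in each library. The untreated parental libraries stand at 16.6 and 18.8, the tagged ones with rapamycin at 36.6 and 32.7.

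Without rapamycin, 359 members rose and 20 fell in tagged cells. That is 42.1% and 2.35% of the members, beside 42.8% and 2.68% of all features tested, so the share of members called was close to the background. Their median log2 fold change was 0.46, beside 0.36 for all features, and its quartiles were 0.21 and 0.76. At least 2-fold rises were called for 97 members (11.4%) and falls of that size for 4 (0.469%), beside 9.67% and 0.493% of all features tested. Precision differed: the median 95% interval of a member reached 0.46 to either side of its estimate, beside 0.34 over all features.

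The scale on which the libraries are compared sets these numbers. Scaling to protein-coding features moved the median of all features from 0.36 to 0.13 and left 198 members higher and 31 lower, with a median of 0.28. Scaling to snoRNAs moved the median of all features to -0.24 and gave 70 higher and 85 lower, with a median for members of -0.03. Quantile normalization gave 46 higher and 104 lower, a median of -0.11 for members and -0.02 for all features. On these 3 scales, in the order given, 28.3%, 6.66% and 16.4% of all features tested were higher. The shares lower were 13.9%, 19.9% and 19.1%. Leaving out parental untreated replicate 1 left 201 members higher, and leaving out parental untreated replicate 2 left 9 lower.

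With rapamycin in both strains, 558 members rose and 19 fell in tagged cells, 65.5% and 2.23% of the members beside 69.8% and 2.09% of all features tested. Their median was 0.67, beside 0.59, and its quartiles were 0.37 and 1.00. At least 2-fold rises were called for 217 members (25.5%) and falls for 5 (0.587%), beside 19.7% and 0.493% of all features tested. After scaling to protein-coding features, snoRNAs or quantiles, 216, 148 and 69 members were higher and 45, 63 and 124 lower. Their medians were 0.28, 0.15 and -0.10, beside 0.13, -0.03 and -0.02 for all features. Of all features tested 30.2%, 12.9% and 19.8% were then higher and 17.6%, 10.4% and 22.6% lower.

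The rule that chose the members used the tagged libraries too. Over the 4 parental libraries 110 of the 852 averaged under 0.01, so they are members through their level in tagged cells; 63 of them rose without and 89 with rapamycin. Over the 4 tagged libraries 5 members averaged under 0.01, of which 1 and 3 fell. These members stand in the counts above, which are descriptions. The filter on all features tested had the same lower bound, but no upper bound as the members had. Over the 4 tagged libraries 174 members averaged at or over that upper bound of 0.05, and over the 4 parental libraries 5 did. Those 174 and 5 are members through their lower level in the other strain.

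Beside other classes of the same abundance, members sat between CUTs and protein-coding features. CUTs are cryptic unstable transcripts degraded by the nuclear exosome, and NUTs are Nrd1-unterminated transcripts seen when the termination factor Nrd1 is removed. Without rapamycin, 67.4% of 487 CUTs and 51.1% of 876 NUTs of this density range rose, with medians of 0.74 and 0.55. Of 288 protein-coding features in the range 35.8% rose, with a median of 0.43. Limma and voom called 0 of the 487 CUTs lower, and 0 were lower at an unadjusted p under 0.05. The more abundant XUTs rose in 65.2% of 669 cases (median 0.62), and their intervals were narrower, at 0.37 to either side. With rapamycin 83.2% of these CUTs, 72.5% of the NUTs, 80.3% of the more abundant XUTs and 54.5% of the protein-coding features rose. The differences between classes were not tested.

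**Figure D2:**
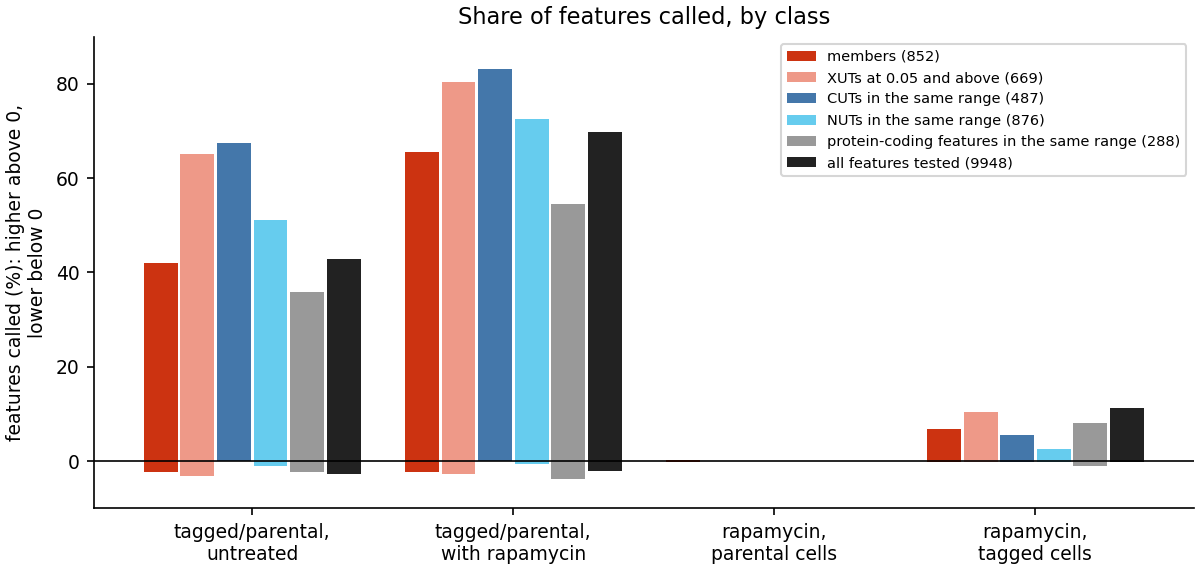
Share of features called higher (above 0) and lower (below 0) in percent, for the members and the classes beside them, in 4 comparisons; the number of features is in the legend. In both comparisons of strains the members, at 42.1 and 65.5%, stand below the CUTs, at 67.4 and 83.2%; rapamycin in parental cells shows next to no calls in any class.

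Shares of members called were also read by depth. Among the 213 members with the fewest reads (2 to 9.12 a library) 37.6% rose without and 54.5% with rapamycin, and among the 213 with the most (31 to 195) 46.5 and 72.3%, a difference that was not tested. Median log2 fold changes of these sets were 0.46 and 0.47 without and 0.65 and 0.62 with rapamycin. The median half-width of the 95% interval fell from 0.54 to 0.41.

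The 2 comparisons of strains share no library. Of the 359 members higher without rapamycin 329 (91.6%) were also higher with it, and these were 59% of the 558; over all features tested the shares were 96.4 and 59.2%. In both, 11 members were lower, and 772 of 852 had the same sign, beside 180 and 9098 of the 9948 features tested. Across members the fold changes had a Pearson r of 0.70 and a Spearman rho of 0.68 (n = 852 members, which share libraries, spike-in factors and strains), beside 0.85 and 0.83 over all features tested. The 1 member called in opposite directions was XUT1468, singled out here after its values were seen.

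**Figure D3:**
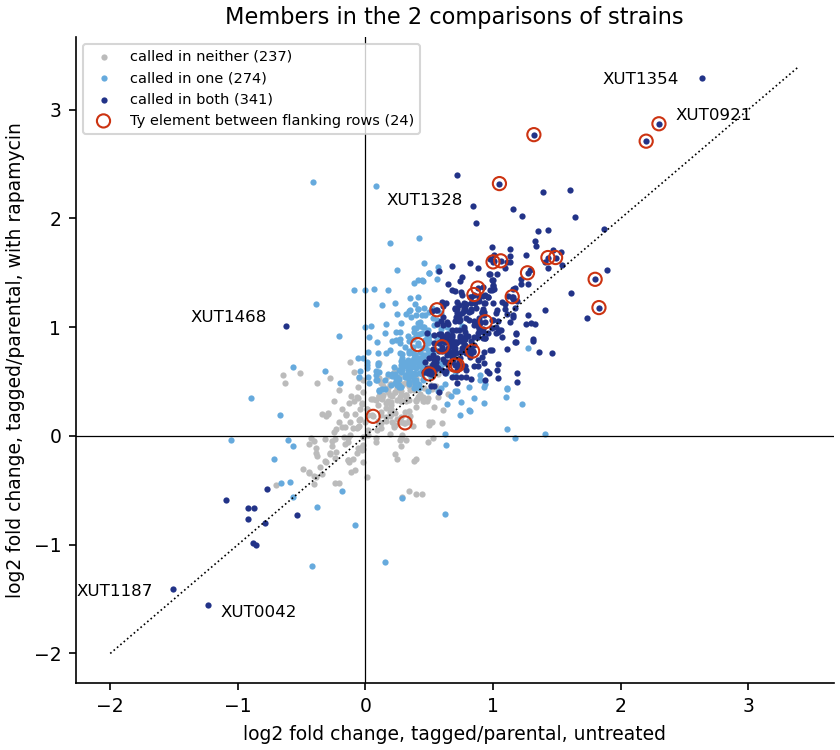
Log2 fold change of tagged over parental cells for each of the 852 members, untreated (x axis) and with rapamycin (y axis); points are coloured by call, and red rings mark members whose flanking rows have a Ty element of the reference between them. The dotted line marks equal values. Most points lie above 0 on both axes, with XUT1354 highest on both and XUT1187 and XUT0042 lowest.

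XUT1354 rose the most in both comparisons. Its density was 0.00365 and 0.00402 in untreated parental, 0.0591 and 0.0642 in untreated tagged, 0.00212 and 0.00398 in rapamycin-treated parental and 0.0998 and 0.0868 in rapamycin-treated tagged libraries. Every tagged library was above every parental one. The log2 fold change was 2.64 ± 0.21 without rapamycin (limma adjusted p = 2.37e-08) and 3.29 ± 0.21 with it (8.74e-10). At 1428 nt and 87 to 122 reads in tagged libraries it is among the better measured of the named members, with 3 to 7 reads in parental ones. Its parental mean was 0.00344 and its tagged mean 0.0775, so it reached the bound of 0.01 through the tagged libraries, where it is high. The same holds for XUT0921, XUT1237, XUT0103, XUT0915, XUT1745, XUT0737, XUT0762, XUT1703 and XUT1328 below, whose high level in tagged cells was a condition of their being members.

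The table does not give positions of XUTs. Its rows follow the chromosomes, since only 11 of 5902 neighbouring annotated rows on 1 chromosome are out of order by start, so a member can be placed between the annotated rows that flank it, and its strand stays unknown. XUT1354 sits between YIR042C, the last annotated gene row of chromosome IX (435273 to 435983, R64), and YJL225C, the first of chromosome X. YIR042C, a gene of unknown function 4.62 kb from the chromosome end, rose as well (2.26 and 2.59, adjusted p = 1.72e-08 and 1.97e-09).

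XUT0921 had densities of 0.00591 and 0.0038 in untreated parental and 0.0616 and 0.0435 in untreated tagged libraries, and 0.012 and 0.00752 against 0.111 and 0.12 with rapamycin. It rose by 2.30 ± 0.22 (adjusted p = 2.59e-07) and 2.87 ± 0.22 (9.57e-09). The groups did not overlap, which was a condition of naming the highest and lowest members. Tagged libraries stood above parental ones in 69.8% of members without and 77.6% with rapamycin, beside 68.7% and 82.8% of all features tested. It was read 3 times in the untreated parental group and 27 times in the tagged one, a ratio of 10.6 per spike-in with a 95% counting interval of 3.25 to 54.4. Its row lies between CUR1, a protein-sorting factor, and KRE6, a glucan synthesis enzyme, on chromosome XVI (843262 to 844020 and 857583 to 859745).

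Of the other members that rose most without rapamycin, XUT1237 was the next. Its density was 0.00503 and 0.0129 in untreated parental and 0.0885 and 0.0471 in untreated tagged libraries, and it rose by 2.2 ± 0.35 (adjusted p = 8.44e-05) and by 2.71 ± 0.35 with rapamycin (4.25e-06). XUT1809 went from 0.00698 and 0.0134 to 0.05 and 0.063 (1.89 ± 0.22, 2.59e-06) and XUT0103 from 0.0136 and 0.00499 to 0.0505 and 0.0519 (1.87 ± 0.27, 2.94e-05). In each of these 3 the tagged libraries stood above the parental ones, by the same condition of naming. XUT1809 is flanked by ARR3, the arsenite exporter gene, and YPR202W near the end of chromosome XVI, of which ARR3 fell by 0.61 (adjusted p = 0.0053) and YPR202W rose by 0.52 (0.0228) without rapamycin.

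XUT0915 was at 0.01 and 0 in untreated parental and 0.026 and 0.0401 in untreated tagged libraries (1.83 ± 0.33, adjusted p = 0.000262), a call lost after quantile normalization (0.0528). Without parental untreated replicate 2 its value was 1.20 (0.0086). XUT1745 had 0 reads in both untreated parental libraries and densities of 0.0279 and 0.0107 in the tagged ones, from 11 reads. It was at least 4.3-fold higher, with 3 reads over the parental group as the floor. Both rest on few reads, and both lie on chromosome XVI, XUT0915 between RRP9 and MEP3 and XUT1745 between THI21 and YPL257W.

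With rapamycin, XUT1388, XUT0737, XUT0762, XUT1703 and XUT1328 were also among the 8 with the highest fold change. XUT1388 stood at 0.00746 and 0.0035 in parental and 0.069 and 0.0887 in tagged libraries (2.77 ± 0.25, adjusted p = 6.92e-08). XUT0737 stood at 0.00512 and 0.0048 against 0.0828 and 0.0384 (2.40 ± 0.26, 6.38e-07). Without rapamycin XUT1388 had risen by 1.32 (0.000391) and XUT0737 by 0.72 (0.0322). XUT1703 was at 0 and 0.00213 in parental and 0.0367 and 0.0313 in tagged libraries, or 1 against 25 reads (2.32 ± 0.25, 5.14e-07). XUT0762 and XUT1328 had 0 reads in both parental libraries with rapamycin and 10 each in the tagged ones, so that each was at least 4.14-fold higher. The call of XUT0762 was lost after quantile normalization (0.0635).

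Several of these named members lie in intervals that hold a Ty element, the LTR retrotransposon of yeast, in the R64 reference; this was looked at after their values were seen. Between the starts of their flanking gene rows, 24 of the 852 members have at least 1 of the 50 Ty elements that RefSeq annotates. Among the 8 members with the highest fold change, 4 were of this kind without rapamycin (XUT0921, XUT1237, XUT0915 and XUT1745) and 4 with it (XUT0921, XUT1388, XUT1237 and XUT1703). Of the 24, 20 (83.3%) rose without and 21 (87.5%) with rapamycin, with medians of 0.97 and 1.29; of the other 828 members 339 (40.9%) and 537 (64.9%) rose, with medians of 0.45 and 0.66. The 24 include XUT0921, XUT1237, XUT0915, XUT1745 and XUT1703, which reached the bound of 0.01 through the tagged libraries. The other 828 hold members of this kind too, and the shares of both sets are descriptions. In both comparisons of strains limma and voom called 0 of the 24 lower, and 0 were lower at an unadjusted p under 0.05. After scaling to protein-coding features, snoRNAs or quantiles 13, 10 and 5 of the 24 were higher without rapamycin and 0 lower. Of all features tested 28.3%, 6.66% and 16.4% were then higher and 13.9%, 19.9% and 19.1% lower. With rapamycin 13, 14 and 8 of the 24 were higher and 0, 0 and 2 lower. Of all features 30.2%, 12.9% and 19.8% were then higher and 17.6%, 10.4% and 22.6% lower. On the spike-in scale at least 2-fold rises were called for 11 of the 24 (45.8%) without and 16 (66.7%) with rapamycin. These shares were 10.4% and 24.3% among the other members and 9.67% and 19.7% of all features tested. On the 3 other scales the medians of the 24 were 0.78, 0.49 and 0.38 without rapamycin, beside 0.27, -0.04 and -0.12 for the other members. With rapamycin they were 0.90, 0.80 and 0.51, beside 0.27, 0.13 and -0.11.

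The other Ty-interval members include XUT0011 between SEN34 and BUD14 on chromosome I (1.49 and 1.64), XUT0303 between BUR6 and SPT2 on V (1.43 and 1.64) and XUT0197 between YDR209C and GCD6 on IV (1.27 and 1.5). XUT1522 between SPP382 and TUS1 on XII had values of 0.06 and 0.18 and was not called. An interval is several kb long and W303 need not carry each Ty element of the reference, so whether a member overlaps or adjoins one is unknown. Ty elements are near-identical copies, and how reads that match several places were counted was not stated in any source used here, so these values are uncertain; the part of shared reads in them was not tested.

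Falls were fewer and smaller than rises on the spike-in scale. After quantile normalization falls outnumbered rises in both comparisons of strains, and after scaling to snoRNAs they did so without rapamycin. The same held over all features tested. XUT1187 fell the most without rapamycin: it stood at 0.0494 and 0.0544 in parental and 0.00919 and 0.0189 in tagged libraries, and at 0.0431 and 0.0719 against 0.0221 and 0.012 with rapamycin. Every parental library was above every tagged one. XUT1187 averaged 0.0547 over the parental and 0.0156 over the tagged libraries, so it stayed under the bound of 0.05 through its low level in tagged cells. It fell by 1.51 ± 0.26 (adjusted p = 0.000172) and by 1.41 ± 0.26 (0.000147). Its row adjoins that of ZRT1, the high-affinity zinc transporter gene (chromosome VII 20978 to 22108), which fell by 1.14 (1e-05) and 1.04 (1.2e-05), while ADH4 on its other side had values of -0.03 and 0.29 and was not called.

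XUT0042, between GIP1 and ZTA1 on chromosome II, was at 0.0314 and 0.0416 in parental and 0.0171 and 0.00677 in tagged libraries, and at 0.0494 and 0.0502 against 0.00952 and 0.0155 with rapamycin. It fell by 1.23 ± 0.25 (limma adjusted p = 0.000766) and 1.55 ± 0.25 (4.21e-05). Groups without overlap were a condition of its being named. Neither flanking gene was called in these comparisons: GIP1 had values of -0.18 and 0.17 and ZTA1 of -0.32 and -0.11.

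Without rapamycin XUT1576, XUT0341, XUT1428 and XUT1272 also fell, by 1.09, 1.05, 0.92 and 0.92. XUT1428 averaged 0.00948 over the tagged libraries, so it reached the bound of 0.01 through the parental ones, where it is high. XUT1272 averaged 0.0628 over the parental libraries, so it stayed under 0.05 through its lower level in tagged ones. The call of XUT0341 was lost without tagged untreated replicate 2 (-0.65, adjusted p = 0.073), and that of XUT1428 without the same library (0.0582) or without parental untreated replicate 2 (0.0859). XUT0341 is flanked by the α-factor gene MF(ALPHA)2, with values of -3.32 (limma adjusted p = 1.92e-12) without and -3.99 (5.94e-14) with rapamycin. On its other side YGL088W rose by 0.59 (0.000312) and 0.53 (0.000381). The labels give both strains as α, and why this α-factor gene was lower in tagged cells was not tested.

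With rapamycin XUT1568, XUT0277, XUT0278 and XUT0841 were the next lowest after XUT0042 and XUT1187. XUT1568 fell by 1.20 ± 0.45 (adjusted p = 0.0251), but its 0 in tagged rapamycin replicate 2 decided this: without that library the value was -0.15 (0.666). XUT0277 was at 0.0304 and 0.0315 in parental and 0.0166 and 0.008 in tagged libraries (-1.0 ± 0.24, 0.00149). It lies with XUT0278 (-0.98 ± 0.27, 0.0036; 0.068 without parental rapamycin replicate 1) between GIP2, a regulator of protein phosphatase 1, and HIS1, a histidine synthesis enzyme. GIP2 rose by 1.26 (1.52e-05) and 1.82 (1.14e-07), opposite to both members. XUT0841 fell by 0.82 ± 0.24 (0.00556), a call lost without parental rapamycin replicate 1 (-0.72). It averaged 0.0133 over the parental and 0.00776 over the tagged libraries, so it reached the bound of 0.01 through the parental ones.

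Such cases were not general. Over 1636 pairs of a member and a flanking protein-coding row, the fold changes had a Pearson r of 0.02 without and 0.00 with rapamycin (pairs share libraries, and a member or gene can stand in 2 pairs). Members placed within 20 kb of a chromosome end, 45 in all, rose in 48.9% of cases without and 60% with rapamycin, beside 41.8 and 65.8% of the other 807.

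**Figure D4:**
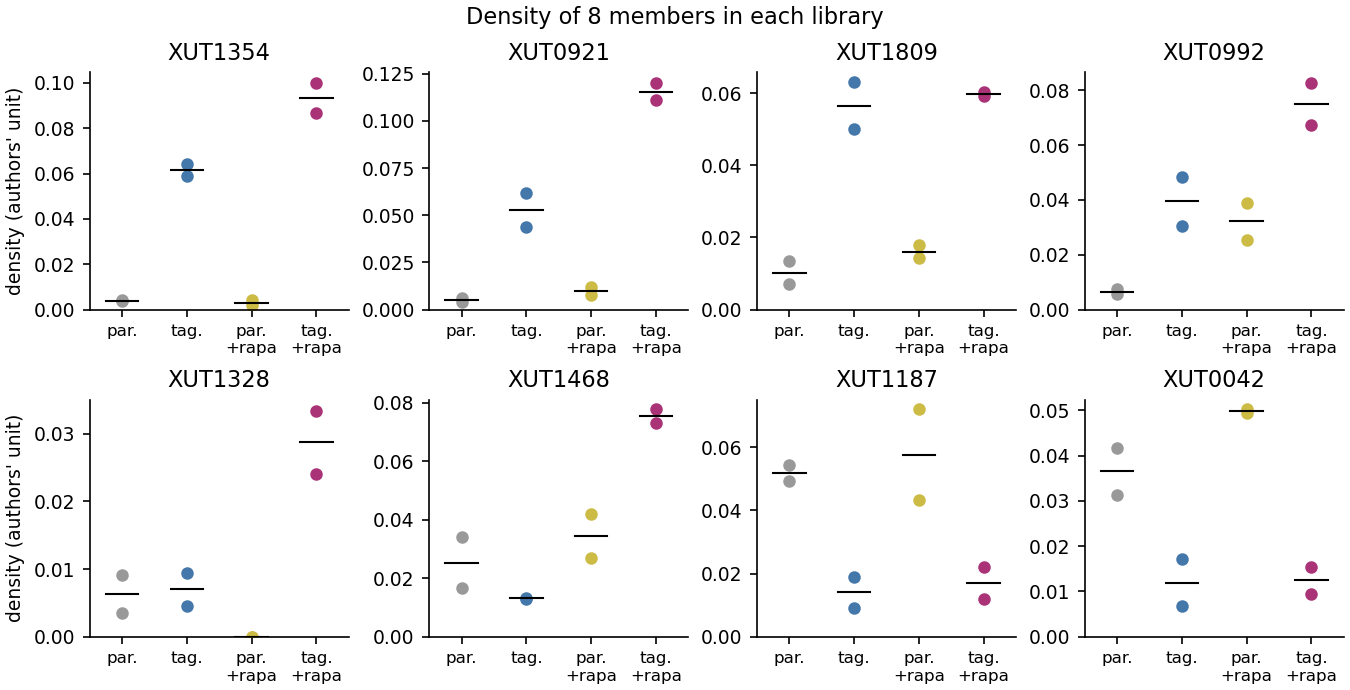
Density in each library for 8 named members (points, libraries; lines, group means; par., parental; tag., tagged; +rapa, with rapamycin). XUT1354, XUT0921 and XUT1809 are high in both tagged groups, XUT1187 and XUT0042 low in both, and XUT1328 and XUT1468 highest in tagged cells with rapamycin.

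In parental cells, which have no FRB tag, rapamycin changed 2 members: limma called 1 higher and 1 lower, 0.117% each, beside 0.0302% and 0.0101% of all features tested. The median was 0.09, as near 0 as that of all features (0.10), and 51 members were higher and 22 lower at an unadjusted p under 0.05, beside 5.45% of all features in either direction. Scaling to snoRNAs gave 8 higher and 5 lower, voom 2 and 1, and leaving out parental rapamycin replicate 1 or 2 gave 10 and 4 or 7 and 10. XUT0992, between YBR238C and ERT1, a transcription regulator gene, on chromosome II, went from 0.00573 and 0.00736 to 0.0389 and 0.0255 (1.5 ± 0.23, adjusted p = 0.0203). It was also higher in untreated tagged than parental cells, at 0.0485 and 0.0306 (1.74 ± 0.23, 1.07e-05), so that the untreated parental group was the lowest of the 4.

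XUT0807, between CMK2, a calmodulin-dependent kinase gene, and IRC10 on chromosome XV, went from 0.0366 and 0.0427 to 0.0135 and 0.0127 (-1.20 ± 0.19, adjusted p = 0.0203). In tagged cells it was at 0.0476 and 0.0489 untreated and 0.0469 and 0.0565 with rapamycin, so that the treated parental group stood alone below the others. Leaving out either untreated parental library ended both calls (0.195 and 0.147 without replicate 1, 0.0509 and 0.134 without replicate 2). Both calls were also lost with no filter (limma adjusted p = 0.0829 each) and after scaling to protein-coding features (0.286 each). Quantile normalization ended them too (0.36 for XUT0992 and 0.135 for XUT0807). The call of XUT0992 was lost with no trend (0.051). With voom XUT0807 was at -1.43 and not called (voom adjusted p = 0.216), so the member voom called lower was another. The next by p, XUT1425, XUT0058 and XUT0487, had values of 0.95, 1.26 and 1.21 and were not called (0.113 each).

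In tagged cells, where rapamycin is meant to carry Dbp2 out of the nucleus, 57 members rose and 1 fell. That is 6.69% and 0.117%, beside 11.2% and 0.141% of all features tested, with a median of 0.29 beside 0.32. The count rests on single libraries and on the scale: it was 26 and 14 without tagged untreated replicates 1 and 2, 15 and 165 without tagged rapamycin replicates 1 and 2, 91 without either untreated parental library, and 0 after scaling to protein-coding features or quantile normalization, where both medians were 0.01. Fewer of the deeper members were called: 2.35% of the 213 with the most reads rose, beside 11.7% of the 213 with the fewest.

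XUT1468, the member with the highest fold change here, was at 0.0129 and 0.0133 in untreated and 0.0779 and 0.0731 in treated tagged libraries, from 6 and 28 reads. The treated tagged libraries were above all 6 others. It rose by 2.02 ± 0.24 (adjusted p = 0.000276), a call lost after scaling to protein-coding features (0.0551) or quantile normalization (0.0724). In parental cells it was at 0.0166 and 0.034 untreated and 0.027 and 0.0421 treated, so that untreated tagged cells were lower than parental ones (-0.62 ± 0.24, 0.0429) and treated tagged cells higher (1.01 ± 0.24, 0.00137). It is flanked on chromosome XII by MMP1, an S-methylmethionine permease gene, and GTT2, a glutathione transferase gene. GTT2 was lower in tagged than in parental cells by a log2 change of -2.08 without and -2.29 with rapamycin (1.87e-08 and 3.38e-09). MMP1 was not called there (-0.28 and -0.23), and neither gene was called for rapamycin in tagged cells (0.11 each).

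XUT0267, between IRC22 and MNN1 on chromosome V, rose in tagged cells from 0.0256 and 0.0301 to 0.0705 and 0.0716 (1.16 ± 0.19, adjusted p = 0.004), and was at 0.0141 to 0.025 in the 4 parental libraries. XUT0930, between YAL067W-A and SEO1 near the end of chromosome I, rose from 0.014 and 0.0096 to 0.0507 and 0.0366 (1.41 ± 0.25, 0.00727). XUT0064, XUT1328, XUT0470, XUT0819 and XUT0617 rose by 1.12 to 1.47. None of these 8 calls held on the protein-coding or the quantile scale. The value of XUT0470 was 0.73 (0.146) without tagged untreated replicate 1, and that library or tagged rapamycin replicate 1 also ended the calls of XUT0064 and XUT1328. XUT0819 lost its call without tagged untreated replicate 2 or tagged rapamycin replicate 1 (0.169 and 0.059). XUT0930, XUT0064, XUT1328 and XUT0819 averaged under 0.01 over the other 6 libraries, so they are members through the treated tagged libraries. XUT1349, the 1 member called lower, fell by 0.74 ± 0.23 (0.0482), and this was lost without tagged rapamycin replicate 2 (-0.41, 0.182) or without either untreated tagged library (0.128 and 0.259).

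The interaction asks whether rapamycin acted differently in tagged than in parental cells, which is the comparison closest to Dbp2 leaving the nucleus. Limma called it higher for 1 member and lower for 0, 0.117% and 0%, beside 0.0402% and 0.0101% of all features tested; 72 members were higher and 17 lower at an unadjusted p under 0.05 (9.47% of all features in either direction), and voom called 3 higher and 0 lower. Leaving out 1 library gave from 0 (without parental untreated replicate 2) to 23 (without parental rapamycin replicate 2) members higher and from 0 to 4 (without tagged rapamycin replicate 1) lower. The median over members was 0.19, beside 0.22 over all features, and -0.01 after scaling to protein-coding features. The 95% interval lay within a 2-fold change either way for 501 members (58.8%), and for the others it reached past 2-fold on at least 1 side. The median interval reached 0.66 to either side.

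XUT1328 was the member called. It averaged 0.00446 over the 6 libraries other than treated tagged ones and 0.0105 over all 8, so it passed the bound of 0.01 through the group whose height the interaction measures, and its call is a description. It had densities of 0.00355 and 0.00912 in untreated parental, 0.00462 and 0.00949 in untreated tagged, 0 and 0 in treated parental and 0.0334 and 0.0241 in treated tagged libraries. These are 3, 3, 0 and 10 reads a group, and with a mean of 2 reads a library it is the shallowest of the 852. The treated tagged libraries were above the other 6. The interaction was 2.22 ± 0.40 (adjusted p = 0.0428) and was lost with no filter on low values (0.112), after scaling to protein-coding features (0.321) or quantile normalization (0.373), and without parental untreated replicate 2 (1.92, 0.245). The ratio of treated to untreated tagged cells was 4.12, with a counting interval of 1.06 to 23.3. It is placed between FLO5, a flocculin gene, and YHR212W-A on chromosome VIII, 11 and 2 rows away.

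The next 4 by p were not called: XUT0010 (1.40 ± 0.29, adjusted p = 0.0921), XUT0807 (1.28, 0.0954), XUT1468 (1.63, 0.0954) and XUT0737 (1.67, 0.131). XUT0010, between ERP2 and SSA1, an Hsp70 chaperone gene, on chromosome I, was at 0.0304 and 0.026 in untreated and 0.0138 and 0.00967 in treated parental libraries and at 0.0396 and 0.0407, then 0.0675 and 0.0516, in tagged ones.

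**Figure D5:**
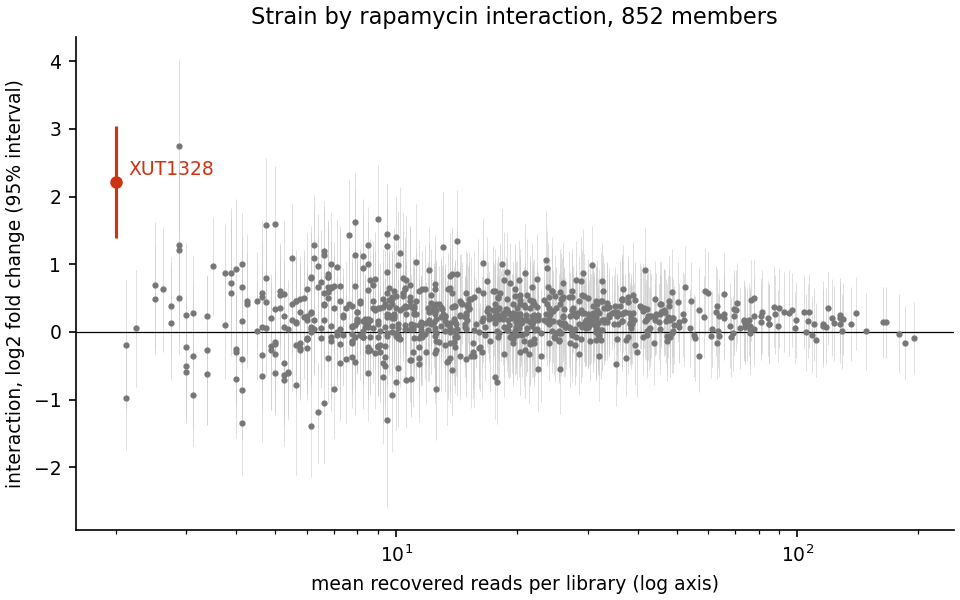
Interaction of strain and rapamycin for each of the 852 members, as log2 fold change with its 95% interval, against the mean reads of the member a library (log axis). XUT1328, in red, is the 1 member called, at 2.22 and 2 reads; intervals narrow to the right.

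At the other end, some members barely varied. XUT1036 had the smallest spread over the 8 libraries, an SD of 0.09 on the log2 scale, with densities from 0.0295 to 0.0366; at 4560 nt and 148 reads a library it is also the longest. XUT1317 (0.10), XUT1426 (0.11), XUT0492 (0.12) and XUT1126 (0.12) followed. XUT1317 was at 0.0207 and 0.0157 in untreated parental and 0.0175 and 0.0179 in untreated tagged libraries, where the summed density of members rose. The largest SDs were those of XUT1354 (1.60), XUT0921 (1.46), XUT1237 (1.41), XUT1388 (1.19) and XUT0762 (1.08).

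Genes for the termination and decay of noncoding RNAs, with DBP2, were examined as a list of 27. Without rapamycin limma called 6 of the 27 higher and 0 lower in tagged cells (42.8% and 2.68% of all features; 6 and 0 also by voom and at an unadjusted p under 0.05), with a list median of 0.20, below the 0.36 of all features. They were NRD1 (termination; 0.515 ± 0.0504 to 1.08 ± 0.00116 (SD, n = 2); 1.06, adjusted p = 1.49e-05), DCP1 (decapping; 0.82, 0.000197), LRP1 (exosome cofactor; 0.65, 0.00173), RAI1 (nuclear 5′ decay; 0.58, 0.0046), UPF3 (nonsense-mediated decay; 0.43, 0.0442) and LSM1 (decapping activator; 0.37, 0.0465). After scaling to snoRNAs none of the 6 was called, and RAI1, UPF3 and LSM1 turned negative. The direction of the list rests on the scale: 4 were higher and 6 lower (XRN1, PAT1, SKI3, PAP2, SEN1 and RAT1) after scaling to protein-coding features, 0 and the same 6 with snoRNAs, and 5 and 7 with quantiles, with list medians of -0.04, -0.44 and -0.07. UPF3 and LSM1 were also lost without parental untreated replicate 1 (0.24, adjusted p = 0.361, and 0.25, 0.285) or either untreated tagged library. LSM1 was lost with the replicate block too (0.0805) and without either treated parental library (0.0723 and 0.0724).

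XRN1, whose product degrades XUTs, had densities of 1.02 and 1.24 in untreated parental and 1.10 and 1.03 in untreated tagged libraries, and 1.19 and 1.30 against 1.38 and 1.18 with rapamycin. The groups overlapped, with log2 fold changes of -0.09 (adjusted p = 0.641) and 0.04 (0.829). On the other 3 scales XRN1 was called lower in tagged cells, with values of -0.34 (0.00072) and -0.46 (0.000126) scaled to protein-coding features, -0.74 (0.00706) and -0.63 (0.0226) to snoRNAs, and -0.31 (0.00163) and -0.43 (0.00025) to quantiles. DBP2 had values of 0.27 (0.174) and 0.53 (0.0072), which say nothing of where its protein is. The second was 0.23 (0.182) without tagged rapamycin replicate 1, 0.83 (1.91e-05) without replicate 2 and 0.44 (0.0559) without parental rapamycin replicate 1, and 0.04, -0.14 and 0.13 on the 3 other scales, with no call. With rapamycin limma called 16 of the 27 higher and 0 lower in tagged cells, beside 69.8% and 2.09% of all features (17 and 0 by voom and at an unadjusted p). After scaling to protein-coding features 7 were higher and 10 lower, with snoRNAs 1 and 3, and with quantiles 6 and 10, beside 30.2 and 17.6%, 12.9 and 10.4%, and 19.8 and 22.6% of all features. For rapamycin in tagged cells it called 0 of the 27, while voom called 11 higher and 12 were higher at an unadjusted p under 0.05. In parental cells limma, voom and the unadjusted p gave 0 each; for the interaction limma and voom gave 0 and the unadjusted p gave 2 higher.

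Some members are not separate measurements. In 11 of them all 8 libraries held the same reads as a row of another class 1 or 2 rows away, such as XUT0048 with CUT019, XUT1507 with CUT746 and XUT1625 with NUT1361, so each such pair is 1 set of counts under both names. Between replicates the recovered reads of members varied less than independent counts would, at 0.675 to 0.995 chi-square units per degree of freedom by group, beside 0.88 to 1.37 for spike-in RNAs of 20 to 1000 reads. Of the members' recovered read values 39% were odd, beside 50% in spike-in RNAs. How reads over overlapping features were counted was not stated in any source used here, and its part in these values was not tested.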

How the data were processed

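RNA was measured in 8 libraries, 2 biological replicates of each of 4 groups, from rRNA-depleted total RNA extracted with hot phenol, in stranded libraries, per the labels' protocols. Trim Galore, HISAT2 2.2.0, featureCounts 2.0.0 and DESeq2 with build R64 are named in the submitters' processing notes; no source used here states their settings. What the authors deposited is 1 table of signal, as read densities per nucleotide scaled between libraries, of 10891 features, with group means beside the libraries.

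For each library a factor, and for each feature a length, were recovered that make the positive densities whole reads (100.0% within 0.01 reads, partly by construction). The factors are those a median of ratios over the 92 spike-in RNAs gives, to within 2.2e-13%. Lengths are the shortest possible up to 40000 nt. These reads give depth and 1 alternative; intervals from them cover counting error only.

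The test was limma 3.58.1 (R 4.3.3) with a trended prior on log2(density + 0.00721), where 0.00721 is the 5th percentile of the positive values. All 8 libraries shared 1 fit with 4 group means (4 residual and 15.2 prior degrees of freedom). Yeast features averaging at least 0.01 were tested, which is every member, two-sided, with Benjamini-Hochberg adjustment at 0.05. Nothing gives more than the labels on how the replicates were grown, so p-values measure the spread between these libraries. An exact permutation test of 2 against 2 libraries cannot reach 0.05. The code was tested on simulated data.

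By rule, the text names called members with groups that do not overlap (up to 8 highest and 6 lowest a comparison, or the 5 lowest p where under 5 were called), XUTs next to each bound, members of extreme spread or length, members sharing reads and up to 6 called genes of the decay list. Members and lists were chosen with earlier results of these data known. Flanking genes came from RefSeq R64. Tables and plots were made in Python 3.11.15 (matplotlib 3.10.9, scipy 1.17.1, pandas 2.3.3, numpy 2.4.6).

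Alternatives were 2 other pseudocounts (0.00257 and 0.0144), a filter at the 10th percentile (0.0127) or none, 3 scalings, no trend, a replicate block, voom on the recovered reads and leaving out each library, with the group's remaining library taken to vary as the others do. The differences of replicates 1 and 2 correlated between groups at -0.12 to 0.14 over members, so the numbers do not pair the libraries.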

Additional observations from a re-analysis of the deposited data

Results flagged for a closer look

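XUT1328 stood out because rapamycin went with different changes in the 2 strains, by the interaction term itself: 2.22 ± 0.40 on the log2 scale (limma adjusted p = 0.0428). Its reads were 3 in untreated parental, 3 in untreated tagged, 0 in treated parental and 10 in treated tagged cells, the fewest of any member. The call was lost with no filter on low values (adjusted p = 0.112), after scaling to protein-coding features (0.321), after quantile normalization (0.373) and without parental untreated replicate 2 (0.245). It averaged 0.0105 over all 8 libraries and 0.00446 over the 6 outside treated tagged cells, so it met the lower bound of 0.01 only through the libraries in which it is high, and its value is a description of these libraries.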

How the results depend on the processing

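Of 52 named results that were called, 22 kept their direction and call under all 18 alternatives in which they were tested. After scaling to snoRNAs RAI1, UPF3 and LSM1 turned negative without rapamycin (-0.06, -0.21 and -0.28), with no call. For tag without rapamycin, members higher and lower were 198 and 31 after scaling to protein-coding features, 70 and 85 to snoRNAs and 46 and 104 to quantiles; their median (0.46) became 0.28, -0.03 and -0.11, 0.55 and 0.38 with the lower and the doubled pseudocount, and 0.61 with voom. For strains with rapamycin the counts were 216 and 45, 148 and 63, and 69 and 124; the median (0.67) became 0.28, 0.15 and -0.10, then 0.78 and 0.55, and 0.84 with voom. For rapamycin in parental cells, the counts (1 and 1) were 0 and 0 with no filter, protein-coding scaling or quantiles, 0 higher with no trend, 8 and 5 with snoRNAs, 9 and 5 with the replicate block and 2 higher with voom; the median was 0.01 with protein-coding scaling and 0.00 with quantiles. For rapamycin in tagged cells, members higher (57) were 29 with the lower pseudocount, 16 with no filter, 28 with no trend, 25 with snoRNAs, 119 with voom and 0 with protein-coding scaling or quantiles; members lower (1) were 0 in all of these but snoRNAs and voom, and 3 with the replicate block. The median was then 0.01 with protein-coding scaling or quantiles and 0.36 with voom. The interaction (1 and 0) gave 0 higher with the stricter filter, which leaves XUT1328 out, with no filter, protein-coding scaling or quantiles, 9 and 3 with snoRNAs, 16 and 4 with the replicate block and 3 higher with voom; its median (0.19) was -0.01 with protein-coding scaling and 0.00 with quantiles. The numbers do not pair the libraries, and the replicate block moved no other count by over 1.5 times. Of the named results that were called it ended only that of LSM1 (0.37, adjusted p = 0.0805). The cause of these shifts was not tested.

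Leaving out 1 library gave 201 to 386 members higher, 9 to 25 lower and a median of 0.41 to 0.53 for tag without rapamycin, and 424 to 568, 14 to 21 and 0.61 to 0.75 for strains with rapamycin. For rapamycin the ranges were 0 to 10, 0 to 10 and 0.02 to 0.15 in parental cells and 14 to 165, 0 to 5 and 0.23 to 0.36 in tagged cells, and for the interaction 0 to 23, 0 to 4 and 0.13 to 0.28.

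Members had a median of 16.8 reads a library. The smallest change called between strains among them was 0.46 without and 0.40 with rapamycin on the log2 scale. These values are not a detection limit, since some larger changes were not called. XUT0747, for example, had 0.50 (limma adjusted p = 0.206) and 0.57 (0.109). A difference that was not called in a single member is thus not shown to be absent.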
